A study of Mus musculus with 20 samples.

Results

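Control skin of 300-day mice was compared with control skin of 100-day mice. Membership was taken from the labels alone: 3 samples were labelled as 300-day controls and 2 as 100-day controls, 5 of the 20 samples of the study. Both groups were whole skin, taken from mice of the inbred strain C57BL/6 with the genotype Sod2+/+, so that both carried an intact gene for the superoxide dismutase of mitochondria, and no treatment is given for either. The other groups, used for context only, were controls of the same genotype at 50 days (5 samples) and 700 days (4 samples) and a Sod2 conditional knockout (Sod2-/-, written cKO below) at 100 and 300 days (3 samples each). The labels do not say which cells had lost Sod2 in the cKO, nor whether samples of a group came from separate animals. The deposited table holds 1 value per gene and group, in FPKM (fragment counts divided by the length of the gene model and by the library's mapped fragments, hence a level per length). With no spread between samples, none of the values that follow has an error or a test, and read depth is unknown.

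Whole skin holds keratinocytes of the epidermis, hair follicles, fibroblasts and their collagen, fat, a thin muscle layer, vessels and resident immune cells. Immune cells of resting skin are mostly macrophages, dendritic cells, mast cells and T cells. B cells, which carry immunoglobulin as their antigen receptor, are found mainly in lymph nodes and spleen. Hair follicles cycle between growth and rest, and the mix of their transcripts moves with the cycle. In bulk tissue, a lower level from fewer cells of a type and one from less RNA per cell cannot be told apart.

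For each gene the log2 ratio of (FPKM + 1), 300 over 100 days, was taken, and genes with a ratio of 1 or above were counted as higher, those with -1 or below as lower. Of 12050 named genes that averaged 1 FPKM or above across the 6 groups, 404 were higher (3.35% of those genes) and 120 lower (0.996%). Most genes differed little: 10264 of them (85.2%) had a log2 ratio between -0.5 and 0.5, and the median was 0.03. At a size of at least 2 there were 95 higher and 12 lower. With both groups rescaled to equal totals (TPM) the median of all genes moved to -0.15, and the counts were 304 higher and 185 lower, so that 62.2% of the counted genes were higher in place of 77.1%. Of the 12050 genes 6527 had a ratio above 0 and 5520 below 0 in the deposited values, and 3628 and 8419 at equal totals. Over all 19223 named genes of the table, with no filter, 2.77% were higher and 0.739% lower, and the gene lists below are read against these shares.

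**Figure D1:**
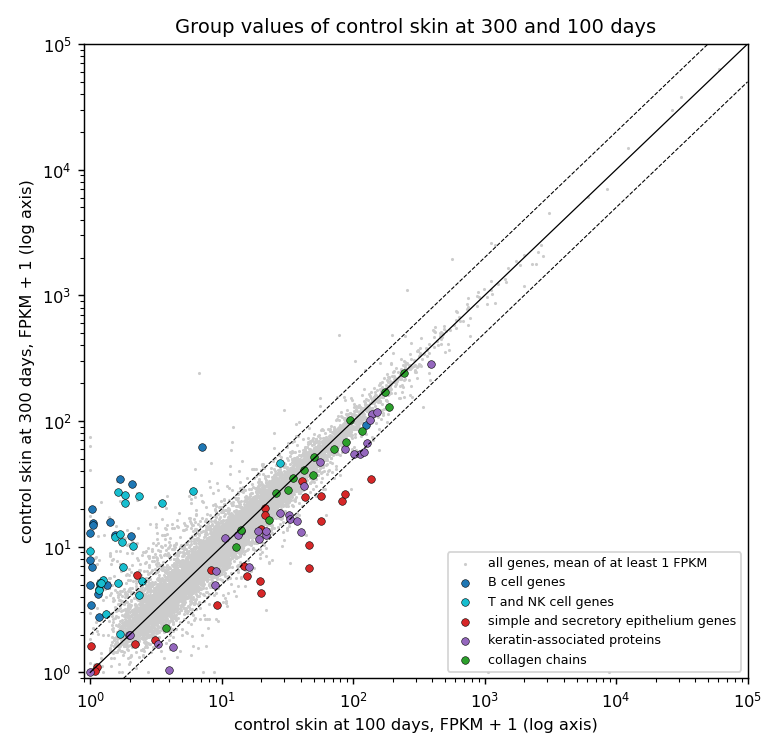
FPKM + 1 of each of 12050 named genes in control skin at 100 days (horizontal) and 300 days (vertical), both on log axes. The solid line is equality and the dashed lines are a log2 ratio of 1 and -1. Most B, T and NK cell genes lie above the upper dashed line toward the left edge, simple and secretory epithelium genes lie mostly under the solid line, and collagen chains lie along it.

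Labels and tissue were checked first. The basal keratin Krt5 was 358 and 381 FPKM at 100 and 300 days, and the differentiation keratin Krt10 650 and 624 FPKM. The dermal collagen gene Col1a1 was 173 and 170 FPKM. These markers of epidermis and dermis thus stood at like levels in both groups. Adipoq, a fat marker planned for the same check, was lower at 300 days, as given with the fat genes below. Uty, Kdm5d, Ddx3y and Eif2s3y, all Y-linked, were at or below 0.103 FPKM in both groups, while the row that holds Xist, together with a pair of predicted genes, was 1141 FPKM at 100 days and 2187 FPKM at 300 days. The remaining groups fell on both sides: these 4 Y-linked genes summed to 0.743 FPKM in the 50-day control but to 112 FPKM in the 700-day control and to 107 and 101 FPKM in the cKO at 100 and 300 days, and the Xist row was 2580 FPKM at 50 days, 3.69 at 700 days, and 4.92 and 17.2 FPKM in the cKO. Wherever these controls are set beside the cKO or the 700-day control below, genotype or age therefore cannot be told apart from this sex-linked difference. Skeletal muscle genes, which come from the layer under the skin, summed to 25377 and 21014 FPKM. FPKM of all rows summed to 595975 at 100 days and 684053 at 300 days, and log2 levels of the 12050 genes correlated at 0.95 between both groups, given as a description over genes of 2 group values. Sod2 itself was 27.7 FPKM at 100 days and 23.5 at 300 days (log2 ratio -0.23), and Junb, the AP-1 subunit named in the title of the study, 20.1 and 24.5 FPKM (0.27).

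The broadest difference was in genes of lymphocytes. Of the 19 B cell genes measured, 18 were counted as higher at 300 days and none as lower, with a median log2 ratio of 2.96. Of 23 genes of T and NK cells 20 were higher and none lower (median 2.11). For all named genes the share counted as higher was 2.77%, as given above. The exception among B cell genes was Ly6d, which keratinocytes also express, at 124 FPKM at 100 days and 92.5 at 300 days. The lists were written with earlier results of these data known, so their counts describe these 2 groups and are no independent evidence.

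Of the B cell genes, Ighd and Ighm encode the heavy chains of the 2 immunoglobulin classes carried by resting B cells. Ighd was 0.669 FPKM at 100 days and 33.6 at 300 days (log2 ratio 4.37), and Ighm 6.09 and 60.8 FPKM (3.12). Fcmr, the receptor for IgM, was 0.0374 and 18.9 FPKM (4.26). The complement receptor Cr2 was 1.06 and 30.7 FPKM (3.94), the inhibitory co-receptor Cd22 0.0521 and 14.5 FPKM (3.89), and Pax5, the transcription factor that keeps B cell identity, 0.0533 and 13.8 FPKM (3.81). Cd79b, which passes on the signal of the B cell receptor, was 0.422 and 14.7 FPKM. Its partner Cd79a was 0.0382 and 5.89 FPKM. Ms4a1, which encodes CD20, was listed at 0 at 100 days and at 6.81 FPKM at 300 days, without a fold. Of the B cell genes named so far, all but Ighm and Ly6d stood near 1 FPKM or below at 100 days, and each of them was above 5 FPKM at 300 days.

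Immunoglobulin genes showed the same pattern. The kappa light chain constant region Igkc had the highest log2 ratio among genes above 0 in both groups, at 5.76 FPKM at 100 days and 240 at 300 days (5.16). In the GRCm38 (mm10) assembly it lies on chromosome 6 from 70726435 to 70726966 and overlaps a long non-coding RNA annotated on the same strand. The heavy chain genes Ighd (113406604 to 113416324) and Ighg1 (113325240 to 113330523) lie on chromosome 12. Ighg1, the constant region of the switched isotype IgG1, was 0.2 FPKM at 100 days and 21.6 at 300 days (4.23). Other switched isotypes were lower in level: Ighg2c was listed at 0 at 100 days and was 5.51 FPKM at 300 days, and Ighg2b was listed at 0 and at 3.11 FPKM. The lambda constant region Iglc3 was listed at 0 at 100 days and at 40.1 FPKM at 300 days, and Iglc1 was 0.69 and 8.21 FPKM. Constant regions of 1 isotype family are near copies, so how reads were shared among them is uncertain.

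Not all genes of antibody-secreting cells followed. Jchain, which joins antibody units, was 0.465 FPKM at 100 days and 6.79 at 300 days (log2 ratio 2.41), and Mzb1, a chaperone of immunoglobulin assembly, 0.254 and 1.63 FPKM (1.07). Tnfrsf17, the survival receptor of plasma cells, was 0.156 and 0.133 FPKM, and the IgA heavy chain Igha was 1.62 and 2.85 FPKM (0.56). Xbp1, Sdc1 and Prdm1, which keratinocytes and other skin cells also express, were 66.2 and 49.8 FPKM, 72.1 and 85 FPKM, and 7.42 and 8.89 FPKM. Of 14 genes in that list, 8 were higher and none lower.

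Many different variable segments were present. Each chain of a lymphocyte's receptor uses 1 of many variable (V) segments, so that more clones can show more segments. Of 345 immunoglobulin V segments in the table, 11 were listed above 0 at 100 days and 154 at 300 days, and 43 of them were counted as higher. Of 166 T cell receptor V segments, 4 were above 0 at 100 days and 61 at 300 days, and 17 were counted as higher. Summed FPKM of these segments was 4.3 at 100 days and 207 at 300 days for immunoglobulin, and 2.2 and 77.4 FPKM for the T cell receptor. Igkv3-4 was the highest ratio of a segment above 0 in both groups, at 0.602 and 32.6 FPKM (log2 ratio 4.39). In the other groups, 9 immunoglobulin V segments were above 0 at 50 days, 20 at 700 days, 92 in the cKO at 100 days and 1 in the cKO at 300 days. Segments above 0 also follow depth, which is unknown here: of all named genes 15226 were above 0 at 100 days and 15846 at 300 days, against 17635 in the cKO at 100 days.

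**Figure D2:**
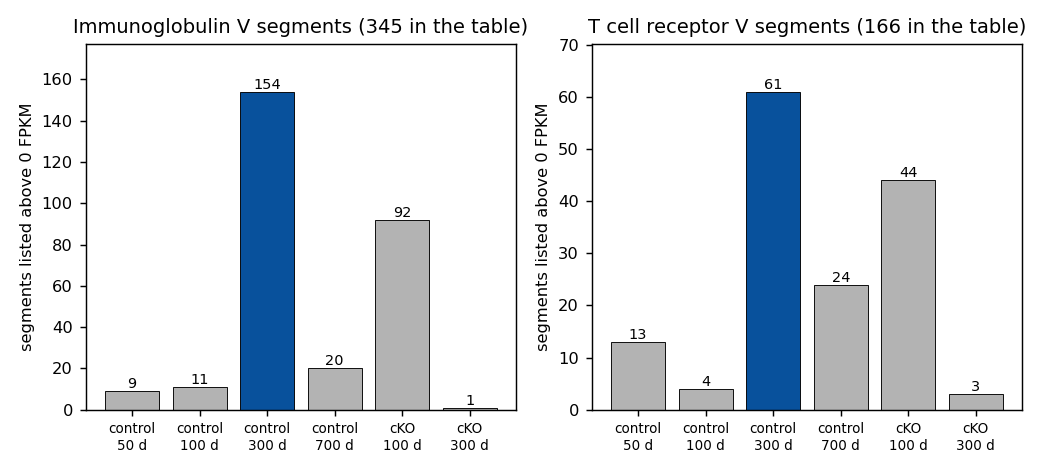
Number of immunoglobulin (left, of 345) and T cell receptor (right, of 166) V segments listed above 0 FPKM in each of the 6 groups (bars, with the counts printed above them). The 300-day control (dark bar) had 154 and 61, the 100-day control 11 and 4.

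T cell genes covered the receptor, its signalling chain and both main lineages. The T cell receptor constant region Trac was 0.836 FPKM at 100 days and 24.8 at 300 days (log2 ratio 3.81), and Trbc1 0.831 and 21.4 FPKM (3.61). The CD3 subunit Cd3g was 2.5 and 21.2 FPKM. Cd2, an adhesion receptor of T cells, was 0.638 and 26 FPKM (4.04). The helper cell co-receptor Cd4 was 0.54 and 10.9 FPKM, Cd8a of cytotoxic T cells 0.207 and 4.14 FPKM, and Cd8b1 was listed at 0 and at 8.32 FPKM. Ccl5, a chemokine made by T cells, was 1.36 and 24.1 FPKM (3.41). The 3 members not counted were Thy1, Nkg7 and Trdc. Thy1, which fibroblasts also carry, was 26.9 and 45 FPKM, and Nkg7 1.34 and 3.1 FPKM. Trdc, the constant region of gamma-delta T cells common in mouse epidermis, was 0.68 and 1.02 FPKM. Outside the list, the gamma chain V segment Tcrg-V5 was 0.681 and 2.41 FPKM (log2 ratio 1.02) and was counted as higher.

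All 6 GIMAP genes in the table, GTPases of lymphocytes, were counted as higher as well, with Gimap3 at 0.281 FPKM at 100 days and 11.4 at 300 days and Gimap4 at 5.96 and 24.8 FPKM. Of 19 MS4A membrane protein genes 6 were higher and none lower, including Ms4a4b at 1.28 and 25.9 FPKM and Ms4a6b at 5.31 and 40.5 FPKM. These families were chosen by symbol after values had been seen.

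Genes of lymph node stroma and of lymphocyte homing were set beside these, since a skin sample can hold a lymph node. Of 14 such genes 5 were counted as higher and none lower (median log2 ratio 0.52), and they summed to 34.5 FPKM at 100 days and 163 at 300 days. Glycam1, a mucin of the vessels through which lymphocytes enter lymph nodes, was listed at 0 at 100 days and at 73.6 FPKM at 300 days; it is also a milk protein gene. The follicle chemokine Cxcl13 was 0.152 and 11.1 FPKM (3.39), the cytokine subunit Ltb 0.391 and 16.3 FPKM (3.63), and the homing receptor Ccr7 0.0811 and 7.2 FPKM (2.92). Other defining members had low listed values, and a listed 0 can be a failed estimate: Ccl21a was listed at 0 in both groups, Madcam1 was 0.0752 and 0.196 FPKM, Ccl19 was listed at 0 and at 0.253 FPKM, and Chst4, which finishes the sugars of such mucins, was listed at 0 and at 0.518 FPKM. Cxcl13 was 17.7 FPKM in the cKO at 100 days, above its 300-day control level. What part lymph node tissue has in the lymphocyte result was not tested.

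Within the cKO the same age step looked different, given side by side because the groups share no samples with the controls. Both cKO groups carried Y-linked transcripts, with Eif2s3y at 45 and 37.5 FPKM against a listed 0 in the controls of 100 and 300 days, and genotype cannot be told apart from that difference. Of the 19 B cell genes 1 was higher and none lower from 100 to 300 days in the cKO (median log2 ratio -0.19), and of 23 T and NK cell genes 1 was higher (median 0.37). Over all named genes of the cKO, 1.58% were higher and 1.21% lower. Ighd was 0.499 and 0.194 FPKM in the cKO, Cr2 0.756 and 0.488 FPKM, Trac 0.361 and 0.439 FPKM, and Cd2 0.723 and 1.24 FPKM. Values in controls of other ages were 0.578 FPKM of Ighd at 50 days and 0.18 at 700 days, and 1.6 and 0.367 FPKM of Cr2. The 300-day control thus had the highest level of Ighd, Cr2, Trac and Cd2 among the 6 groups. Whether the age difference differed between genotypes could not be tested with 1 value per group.

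**Figure D3:**
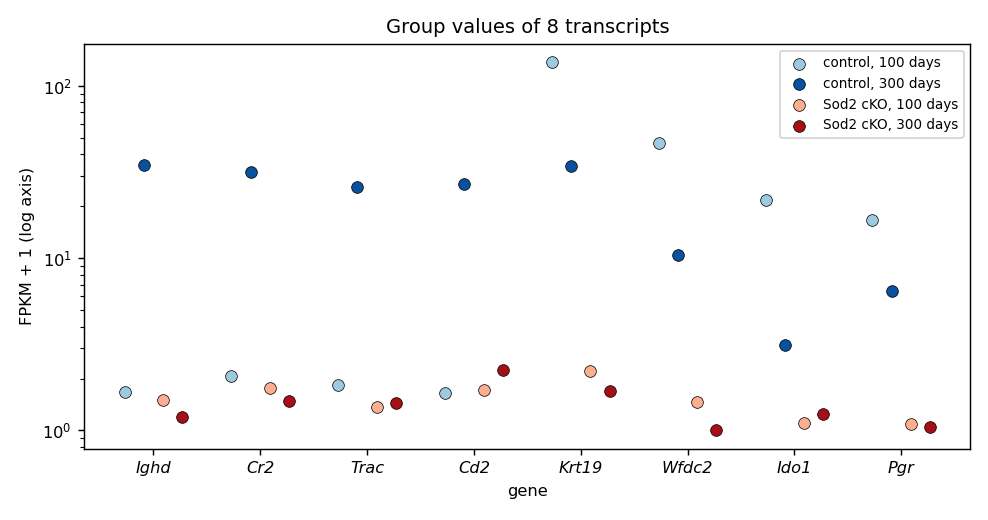
FPKM + 1 (log axis) of 8 genes in the controls and the cKO at 100 and 300 days, 1 point per group. Ighd, Cr2, Trac and Cd2 are high in the 300-day control alone, and Krt19, Wfdc2, Ido1 and Pgr are highest in the 100-day control, lower in the 300-day control and lowest in both cKO groups. Eif2s3y, a Y-linked gene, was 45 and 37.5 FPKM in the cKO groups and listed at 0 in both controls, so genotype cannot be told apart from that sex-linked difference.

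Antigen presentation and macrophage genes were higher by less. MHC class II molecules show peptides to helper T cells, and H2-DM and H2-O steer which peptides are loaded. Of 14 dendritic cell and MHC class II genes 8 were higher and none lower, and all 14 had a ratio above 0 (median 1.05); with both groups at equal totals 6 were higher. The class II chains H2-Aa and H2-Ab1 were 55.4 FPKM at 100 days and 132 at 300 days (log2 ratio 1.23), and 74.9 and 155 FPKM (1.04). H2-Eb1 was 34.8 and 68.1 FPKM (0.95), just under the size counted. H2-Oa and H2-Ob, which B cells express above other presenting cells, had larger ratios, at 0.0492 and 4.08 FPKM (2.28) and at 0.702 and 11 FPKM (2.82). H2-DMa was 8.07 and 20.1 FPKM (1.22), and H2-DMb2 0.777 and 9.51 FPKM (2.56). Ciita, the co-activator that switches on class II genes, was 1.54 and 5.46 FPKM (1.35), and its annotated span overlaps Dexi on the other strand. Dendritic cell genes themselves differed less, with Cd207 of Langerhans cells at 4 and 5.75 FPKM, Xcr1 at 0.347 and 0.525 FPKM and Itgax at 2.38 and 4.21 FPKM.

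Since the class II genes moved together, the sequences before their RefSeq starts (GRCm38.p6) were examined. Their promoters are known for an inverted CCAAT box, the Y box, bound by the factor NF-Y. The letters GATTGG were searched on both strands of the 250 bases before each start. They were found in all 7 of the class II genes that had a promoter in the RefSeq table, of 9 looked for, and in 16.6% of all 27025 symbols with a promoter (4486 symbols). Among genes counted as higher, 41 of 270 symbols with a promoter (15.2%) held it, close to the share of all symbols. The octamer ATGCAAAT, known from immunoglobulin promoters, was in none of 11 B cell genes with a promoter and in 1.81% of all symbols. At so low a share a count of none among 11 genes was likely in advance, so nothing is read from it. A match is a description of letters in this window. For H2-DMa the position of the match within its 250 bases is not given. The following lines give the 130 bases before the start of the other 6 class II genes that held GATTGG. The bases run 5′ to 3′ on the strand of the gene, with GATTGG or its reverse complement in capitals.
H2-Aa: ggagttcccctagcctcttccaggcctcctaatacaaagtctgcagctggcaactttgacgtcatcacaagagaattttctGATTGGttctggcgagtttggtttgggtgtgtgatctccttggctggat
H2-Eb1: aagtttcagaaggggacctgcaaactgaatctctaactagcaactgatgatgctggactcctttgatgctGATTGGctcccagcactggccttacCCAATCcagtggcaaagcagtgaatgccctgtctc
H2-DMb1: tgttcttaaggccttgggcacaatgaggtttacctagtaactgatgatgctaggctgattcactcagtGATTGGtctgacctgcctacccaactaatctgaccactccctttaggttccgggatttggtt
H2-DMb2: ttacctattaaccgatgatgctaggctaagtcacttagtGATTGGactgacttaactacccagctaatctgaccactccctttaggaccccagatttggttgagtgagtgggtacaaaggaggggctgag
H2-Oa: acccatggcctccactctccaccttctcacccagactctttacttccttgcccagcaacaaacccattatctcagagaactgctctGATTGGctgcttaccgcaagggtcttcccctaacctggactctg
H2-Ob: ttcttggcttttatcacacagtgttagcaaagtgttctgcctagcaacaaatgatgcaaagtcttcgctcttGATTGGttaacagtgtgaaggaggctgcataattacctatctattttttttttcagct
The intervals are chr17:34287824-34287953 on the minus strand for H2-Aa, chr17:34305737-34305866 on the plus strand for H2-Eb1, chr17:34153061-34153190 on the plus strand for H2-DMb1, chr17:34145119-34145248 on the plus strand for H2-DMb2, chr17:34092249-34092378 on the plus strand for H2-Oa and chr17:34238775-34238904 on the plus strand for H2-Ob. Counted back from the start, the match began at position -49 in H2-Aa, -62 in H2-DMb1, -91 in H2-DMb2, -44 in H2-Oa and -58 in H2-Ob. H2-Eb1 had matches at -60 and -35, of which that at -35 was on the other strand.

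Macrophage genes made up a further group. Of 18 macrophage and monocyte genes 9 were higher and none lower (median log2 ratio 1.01), and 5 were higher with both groups at equal totals (median 0.82). Aif1, an actin-binding protein of macrophages, was 4.86 FPKM at 100 days and 21.2 at 300 days (1.92), the lysozyme Lyz2 54.5 and 150 FPKM (1.45), and the signalling adaptor Tyrobp 16 and 40.3 FPKM (1.28). The complement genes C1qa, C1qb and C1qc, made by tissue macrophages, were 19.2 and 44.5 FPKM, 30.9 and 66.4 FPKM, and 17.2 and 35.8 FPKM. The widely used markers Adgre1 (5.69 and 7.22 FPKM) and Csf1r (14.7 and 23.3 FPKM) were not counted, nor was the resident macrophage receptor Mrc1 at 17.9 and 31.4 FPKM. Of 16 complement genes, the 3 C1q genes and C4b (19.2 and 43.8 FPKM) were counted as higher, and at equal totals none was. Lyve1, carried by lymphatic vessels and by some dermal macrophages, was 4.75 and 15.9 FPKM (1.56), while the lymphatic genes Prox1 and Flt4 were 0.434 and 0.679 FPKM and 0.87 and 0.984 FPKM.

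Type I interferon response genes, which cells switch on against viruses, were higher in 8 of 18 cases and lower in none (median log2 ratio 0.95); at equal totals 5 were higher (median 0.78). Isg15, a ubiquitin-like modifier, was 3.3 FPKM at 100 days and 13 at 300 days (1.70), the antiviral GTPase Mx1 0.719 and 4.08 FPKM (1.56), Oasl2 4.73 and 14.9 FPKM (1.47) and the nucleic acid sensor Zbp1 4.96 and 13.9 FPKM (1.32). Ifi27l2a, the highest in level, was 345 and 340 FPKM, and Cxcl10 was 2.54 and 1.7 FPKM. In the cKO 10 of these 18 genes were higher from 100 to 300 days and none lower (median 1.06), so that both genotypes had medians near 1. Of the immunoproteasome subunits Psmb8 and Psmb9, counted as higher, were 19 and 39.9 FPKM and 8.56 and 19.7 FPKM, and Psmb10 was 5.14 and 10.4 FPKM (0.89); at equal totals none of them was counted.

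Among 26 chemokines 6 were higher and none lower. Besides Ccl5 and Cxcl13 these were Ccl6 (35.8 FPKM at 100 days and 93.8 at 300 days), Ccl7 (1.77 and 5.11 FPKM), Ccl8 (16.5 and 40.4 FPKM) and Ccl22 (0.251 and 2.77 FPKM). The keratinocyte chemokine Ccl27a was 128 and 147 FPKM. Mast cells did not follow the other immune lists: of 10 genes none was higher and Cpa3, a protease of their granules, was lower at 11.7 and 4.68 FPKM (log2 ratio -1.17), with a median of -0.50. Mast cell genes were also lower in the cKO, where 6 of 10 were counted (median -1.31). Of 10 neutrophil genes 1 was higher, S100a8 at 2.53 and 8.96 FPKM, which keratinocytes also make under stress.

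In all, the immune lists and immune families held 101 of the 404 higher genes (25%) and 1 of the 120 lower genes. They hold 185 of the 12050 genes tested (1.54%), and 43 of the 101 passed the filter on low values only through their level in the 300-day control, so nothing is read from their share. With their members and those of the gland lists left out, 301 genes were higher and 103 lower, 74.5% higher. This alternative was not planned, and it does not remove all immune genes. Leukocyte genes in no list stayed among the 301, such as Ptprc at 11.2 FPKM at 100 days and 89.2 at 300 days.

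**Figure D4:**
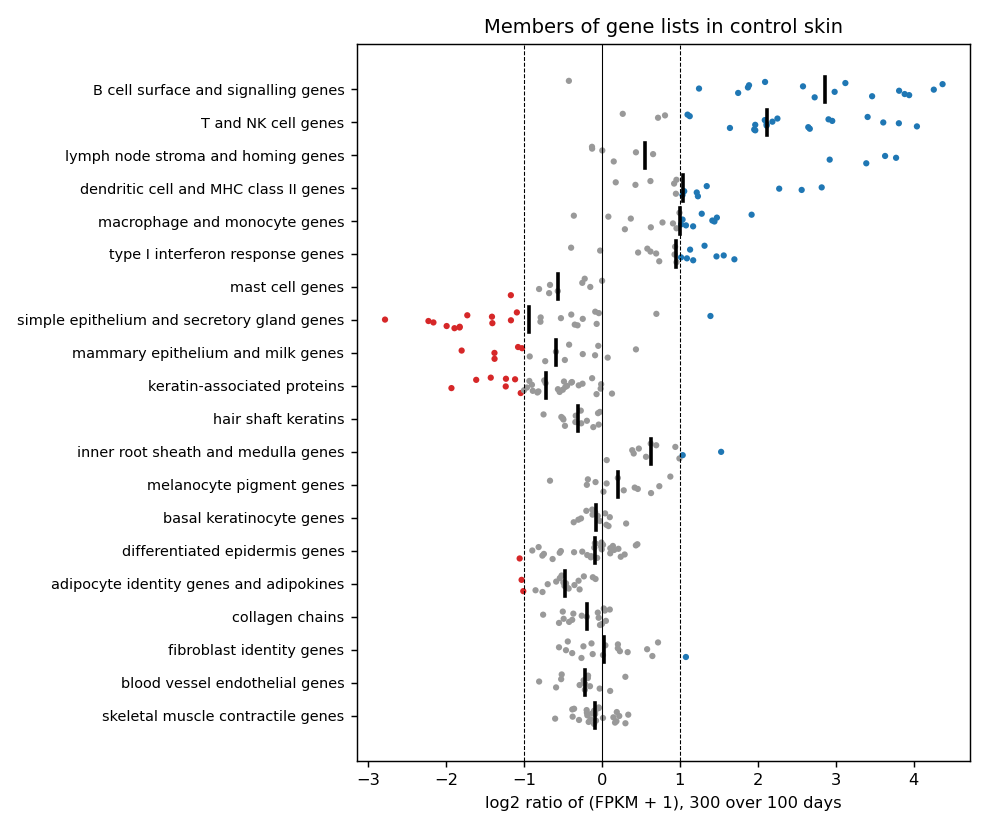
Log2 ratio of (FPKM + 1), 300 over 100 days, of the members of 20 gene lists (points), with members listed at 0 in either group left out and the median of the members drawn as a black bar. Blue points are at or above 1 and red points at or below -1, the dashed lines. Lymphocyte lists lie to the right, gland epithelium and keratin-associated proteins to the left, and collagen, endothelial and muscle genes around 0.

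Genes of simple and secretory epithelium were lower at 300 days. Such epithelium lines gland ducts, in mice among others the mammary ducts that run in the fat under the skin. Of 24 genes 12 were lower and 1 higher (median log2 ratio -0.94), where 0.739% of all named genes were lower. The keratins of simple epithelium Krt8, Krt18 and Krt19 were 55.8 FPKM at 100 days and 15 at 300 days (-1.82), 81.3 and 22.3 FPKM (-1.82), and 136 and 33.4 FPKM (-1.99). Krt7 was 18.6 and 4.29 FPKM (-1.89). The secreted proteins Dmbt1 and Wfdc2 were 45.3 and 5.74 FPKM (-2.78) and 45.4 and 9.38 FPKM (-2.16), and the annotated span of Dmbt1 overlaps Fgfr2 on the other strand. The water channel Aqp5 was 19 and 3.29 FPKM (-2.22) and the ion transporter Slc12a2 85.5 and 25.2 FPKM (-1.72). Krt19 and Krt18 lie on chromosome 11 from 100140810 to 100148665 and on chromosome 15 from 102028180 to 102032027. Epithelial genes that the epidermis and hair follicle share differed little, with Epcam at 40 and 32.1 FPKM and Cldn4 at 20.2 and 19.3 FPKM. The potassium channel Kcnn4, found in red and immune cells too, was the member counted as higher, at 1.28 and 5 FPKM.

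Mammary genes were looked at separately. Of 21 genes 5 were lower and 1, Glycam1, higher (median log2 ratio -0.24). The growth factor Areg was 61.5 FPKM at 100 days and 17 at 300 days (-1.80), the progesterone receptor Pgr 15.7 and 5.43 FPKM (-1.38), the milk protein kappa-casein Csn3 20.7 and 7.38 FPKM (-1.38), the oxytocin receptor Oxtr 57.9 and 28 FPKM (-1.02) and the transcription factor Foxa1 3.38 and 1.08 FPKM (-1.07). The oestrogen receptor Esr1 was 18.6 and 12 FPKM and the alveolar factor Elf5 20.2 and 16.9 FPKM. Milk genes of lactation were at or near 0: Lalba and Csn1s2a were listed at 0 in both groups, Wap was 0.0656 and 0.124 FPKM, Csn2 0.402 and 0.01 FPKM, and Csn1s1 1.57 and 0.554 FPKM. The mammary list summed to 287 FPKM at 100 days and 243 at 300 days, of which Glycam1 gave 73.6 FPKM at 300 days. The simple and secretory epithelium list summed to 732 and 274 FPKM.

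Levels in the remaining groups were lower for most of these genes. Krt19 was 11.9 FPKM at 50 days, 0.261 at 700 days, and 1.21 and 0.684 FPKM in the cKO at 100 and 300 days. Wfdc2 was 5.81 and 0.153 FPKM at 50 and 700 days and 0.468 FPKM in the cKO at 100 days, and it was listed at 0 in the cKO at 300 days. The 100-day control thus had the highest level of Krt19 and Wfdc2 of the 6 groups, and the 300-day control the second highest. The groups with the lowest levels, the 700-day control and both cKO groups, are those with Y-linked transcripts (Eif2s3y at 45.1, 45 and 37.5 FPKM, against 0.347 FPKM in the 50-day control and listed 0 in the controls of 100 and 300 days), and what part that has in these levels was not tested. Between the cKO groups 2 of the 24 epithelium genes were lower and none higher. What part mammary or other gland tissue in the samples has in these differences was not tested.

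Some of the lowest ratios lay outside the gland lists. Ido1, which breaks down tryptophan, had the lowest log2 ratio among genes above 0 in both groups, at 20.7 FPKM at 100 days and 2.13 at 300 days (-2.79). Aoc1, an enzyme that degrades histamine, was 6.61 and 0.612 FPKM, Nrxn3, a cell adhesion gene of synapses, 32.2 and 6.43 FPKM, Fgb, the beta chain of fibrinogen, 5.64 and 0.571 FPKM, and the crystallin gene Crygn 8.32 and 1.59 FPKM. In the cKO at 100 and 300 days Ido1 was 0.101 and 0.24 FPKM. Of the 120 lower genes 16 (13.3%) were in the gland lists and 15 (12.5%) were keratin-associated protein genes, against 28 (0.232%) and 50 (0.415%) of the 12050 genes tested.

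Hair follicle genes differed between lists. The hair shaft is built of hair keratins, which keratin-associated proteins crosslink late in shaft formation, and it is moulded by the inner root sheath around it. Keratin-associated proteins were lower: of 32 genes in the list 7 were counted and none was higher (median log2 ratio -0.64), and 30 had a ratio below 0. Krtap19-2 was 39 FPKM at 100 days and 12.1 at 300 days (-1.61), Krtap6-2 36.3 and 14.9 FPKM (-1.23), Krtap24-1 15.2 and 5.9 FPKM (-1.23) and Krtap19-3 121 and 55.3 FPKM (-1.11). Krtap7-1, the highest of them in level, was 387 and 284 FPKM (-0.44). With both groups at equal totals 12 of the 32 were lower.

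The larger family was then grouped by type. Of 17 genes of the glycine-tyrosine-rich type 8 were lower and 1 higher (median log2 ratio -0.93), and of 39 of the other types, mostly cysteine-rich, 8 were lower and none higher (median -0.74). Krtap21-1 was the lowest of the first type, at 42.9 FPKM at 100 days and 11.4 at 300 days (-1.83), with Krtap19-4 at 94.4 and 27.9 FPKM (-1.72) and Krtap19-5 at 339 and 127 FPKM (-1.41). Krtap6-3 went the other way, at 5.43 and 18.4 FPKM (1.60). Its near copies share sequence, and the split of reads among Krtap6 genes is uncertain. Among the cysteine-rich genes Krtap28-10 was 23.2 and 6.77 FPKM (-1.64) and Krtap5-3 6.93 and 1.26 FPKM (-1.81).

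Hair shaft keratins differed by less. None of 14 was counted, all 14 had a ratio below 0, from -0.75 in Krt82 to -0.02 in Krt84, and the median was -0.30. Krt33a was 127 FPKM at 100 days and 123 at 300 days and Krt35 94.5 and 82.7 FPKM. Inner root sheath and medulla genes stood on the other side: all 12 had a ratio above 0, 2 were counted as higher, and the median was 0.64, although with both groups at equal totals 1 of the 12 had a ratio below 0. The sheath keratins Krt72 and Krt28 were 102 and 297 FPKM (1.53) and 123 and 253 FPKM (1.04), and trichohyalin (Tchh), which fills the hardened sheath cells, 247 and 476 FPKM (0.94). Krt25 was 289 and 302 FPKM (0.06). In the cKO 8 of the 12 sheath and medulla genes were lower from 100 to 300 days and none higher (median -1.10), with Krt72 at 575 and 219 FPKM. Hair shaft keratins and the mixed list of inner root sheath and medulla genes therefore lay on opposite sides of 0 in the deposited values of control skin.

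**Figure D5:**
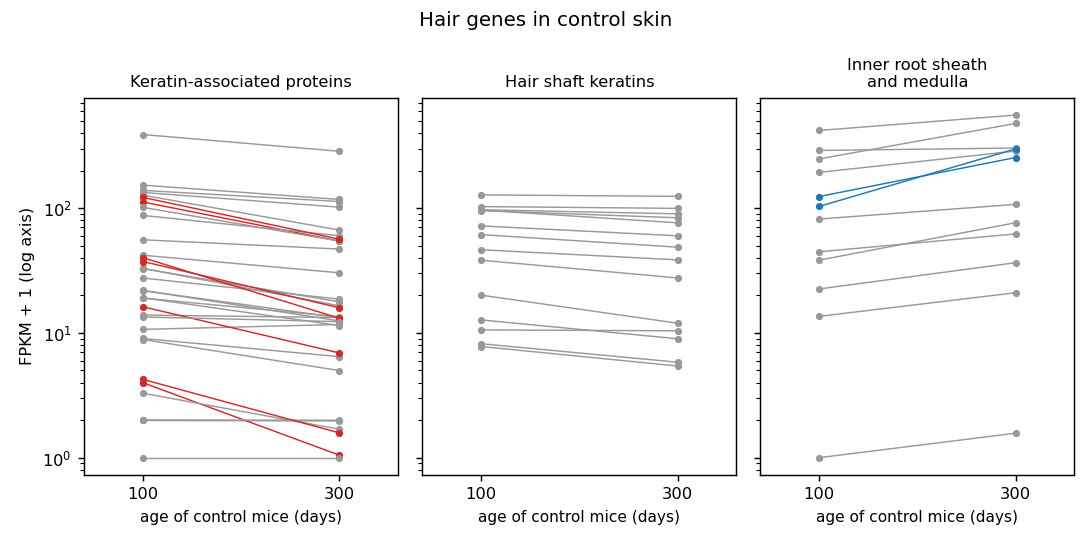
FPKM + 1 (log axis) of each gene at 100 and 300 days in control skin, 1 line per gene, for keratin-associated proteins (32 genes), hair shaft keratins (14) and inner root sheath and medulla genes (12). Red lines are genes counted as lower (7, 0 and 0) and blue lines genes counted as higher (0, 0 and 2).

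Regulators of the growing follicle stood level. Of 16 hair matrix genes none was counted: the transcription factor Dlx3 was 26.4 FPKM in both groups, Lef1 23.3 and 28.9 FPKM, Msx2 11 and 11.4 FPKM, and Foxn1 5.89 and 6.16 FPKM. Fgf5, which ends hair growth, was 0.801 and 2.59 FPKM, a log2 ratio of 1.00 after rounding that lay just under the size counted. None of 14 hair follicle stem cell genes and none of 13 melanocyte genes was counted, with the pigment enzymes Tyrp1 at 40.5 and 41.2 FPKM and Tyr at 6.14 and 10.1 FPKM. At equal totals 1 hair follicle stem cell gene was counted as lower. In the cKO 7 of the 13 melanocyte genes were lower (median -1.12), against a median of 0.21 in the controls (0.01 at equal totals). Proliferation genes had a median of 0.15, and of -0.01 with both groups at equal totals, and none of 25 was counted.

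Few epidermal genes reached the size counted. None of 14 basal keratinocyte genes was counted, and of 32 differentiation genes only Krt2 was, at 1.24 FPKM at 100 days and 0.0793 at 300 days. At equal totals 2 differentiation genes were counted as lower. Ratios below 0 were then found in 13 of the 14 basal and 25 of the 32 differentiation genes, against 9 and 20 in the deposited values. Krt1 was 148 and 94.9 FPKM (log2 ratio -0.63) and the barrier protein filaggrin (Flg) 73 and 42.6 FPKM (-0.76), from the highest of several rows that carry that symbol. Stress keratins stood low at both ages, with Krt16 at 3.84 and 5.24 FPKM and Krt6b at 0.114 and 0.167 FPKM. The stefin genes BC100530 and Stfa3 were counted as lower, BC100530 at 4.86 and 1.41 FPKM and Stfa3 at 7.78 FPKM at 100 days and listed at 0 at 300 days. In the cKO 9 of 18 epidermal stress genes were higher with age and 2 lower (median 0.76), against 1 and 2 in the controls (median 0.05).

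No gene of the dermal matrix lists reached the size counted in the deposited values. None of 17 collagen chains was counted (median log2 ratio -0.19): Col1a1 and Col1a2, the chains of the main dermal collagen, were 173 and 170 FPKM and 242 and 242 FPKM, and the basement membrane chain Col4a1 was 187 and 128 FPKM (-0.55). None was counted among 23 collagen folding and crosslinking genes, 17 elastic fibre genes, 17 proteoglycan and hyaluronan genes, 14 matricellular genes or 16 metalloproteinases and inhibitors. With both groups at equal totals all 17 collagen chains had a ratio below 0 (median -0.38), against 12 in the deposited values. The rescaling moved all genes that way, with 8419 of the 12050 genes tested below 0 at equal totals against 5520 in the deposited values. At equal totals 1 proteoglycan and hyaluronan gene and 1 matricellular gene were counted as lower. Postn, a matricellular protein of growing and repairing matrix, was 281 FPKM at 100 days and 154 at 300 days (-0.87), and the small proteoglycan Prelp 23.9 and 13.2 FPKM (-0.82). Of 18 fibroblast genes only Dpp4, a surface marker of some dermal and fascia fibroblasts, was counted, at 12.9 and 28.3 FPKM (1.08), and at equal totals it was not (0.89). In the cKO 5 collagen chains were higher from 100 to 300 days and none lower (median 0.38).

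Fat genes were lower by small steps. All 20 adipocyte genes had a ratio below 0 at every scaling tried, but only 2 passed the size counted (median log2 ratio -0.47): leptin (Lep) was 36.1 FPKM at 100 days and 17.5 at 300 days (-1.01) and the adrenergic receptor Adrb3 19.9 and 9.27 FPKM (-1.03). Adiponectin (Adipoq) was 271 and 160 FPKM (-0.76). All 14 fatty acid and triglyceride synthesis genes had a ratio below 0 as well (median -0.51), none of them counted, with Scd1, which desaturates fatty acids, at 1985 and 1176 FPKM and Fasn, the fatty acid synthase, at 769 and 474 FPKM. At equal totals 1 of these 14 genes and 3 of the 20 adipocyte genes were counted as lower. Of 12 brown fat genes Cidea, a lipid droplet protein also found in sebaceous glands, was higher at 26.1 and 55 FPKM (1.05, and 0.85 at equal totals), and the uncoupling protein Ucp1 was 22.6 and 29.2 FPKM. Of 18 sebaceous gland genes 1 was higher and none lower, and none was counted at equal totals.

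Vessel, nerve and muscle lists gave few counts. None of 15 endothelial, 12 Schwann cell and 10 smooth muscle genes was counted. Of 27 skeletal muscle genes 1 was lower, the giant muscle protein gene Ttn at 1067 FPKM at 100 days and listed at 0 at 300 days, while the muscle genes Neb and Ckm were 277 and 270 FPKM and 1870 and 1746 FPKM. A gene listed at 0 in such a table can be a failed estimate. Lars2, a mitochondrial enzyme gene, was 8767 FPKM at 100 days and listed at 0 at 300 days, and no fold is given for Ttn or Lars2. In the other groups Lars2 was 2711 FPKM at 50 days and listed at 0 at 700 days and in both cKO groups. Which of its values are reliable cannot be told.

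Ageing and stress lists were also looked at. Of 19 senescence-related genes none was counted: Cdkn2a, which encodes the cell cycle inhibitor p16, was listed at 0 at 100 days and at 0.178 FPKM at 300 days, and Cdkn1a was 37.2 and 41.2 FPKM. Among 10 AP-1 genes 3 were lower, namely Fos at 21.8 and 6.43 FPKM (log2 ratio -1.62), Fosb at 5.07 and 0.609 FPKM (-1.92) and Atf3 at 8.45 and 3.71 FPKM. Jun was 18.5 and 17.8 FPKM and Fosl2 20 and 20.4 FPKM. Fos, Fosb and Atf3 are immediate early genes that tissue handling also switches on. Of 21 other immediate early and heat shock genes none was counted, with Egr1 at 9.94 and 7.68 FPKM and Hspa1b at 7.06 and 7.3 FPKM. The part of handling in the AP-1 values was not tested. In the IGF list none of 16 genes was counted, with Igf1 at 45.7 and 30.8 FPKM (-0.55) and Igfbp2 at 12.5 and 6.19 FPKM (-0.91). None was counted among 21 antioxidant, 34 respiratory chain and 18 clock genes. With both groups at equal totals 1 senescence-related gene, 1 gene of the IGF list and 1 clock gene were counted as lower.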

How the data were processed

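RNA was measured in whole mouse skin. Ribosomal RNA was removed with either of 2 kits, not said per sample, before directional libraries were made, per the labels' protocols. Per the submitters' processing notes, HISAT2, Cufflinks and Cuffdiff were used against mm10; their versions, and the annotation, are not given in the sources used here. By group, the authors deposited FPKM, 1 column each, in 46744 rows named by gene symbols and a locus number. How samples were combined, and whether counting used strand, is not given, so overlapping genes cannot be separated. Depth per sample is unknown, and no interval, floor, error or p-value can be given.

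From these values the log2 ratio of (FPKM + 1) was computed for 19223 named genes; predicted genes, clone names and 1057 rows that carry several symbols did not enter, and of 53 symbols with several rows the highest was used. Of the named symbols 98.6% were found in GENCODE M21, which gave positions. Genes counted averaged 1 FPKM or above across the 6 groups. Lists were planned on the same filter, but 96 higher genes passed it only through the 300-day control, so lists were counted over all members in the table. The members and lists were chosen with earlier results of these data known, and families and motifs after values were seen. Genes were named by rule: Sod2, Junb, Igf1 and Cdkn2a, the 15 highest and 15 lowest ratios with at least 5 FPKM, up to 5 genes listed at 0 each way, and up to 5 members per list; further members were named after their values were seen. Some results the rule names are not reported here. Alternatives were pseudocounts, filters, scalings, row choices and leaving out lists. The counting code was run on simulated data, with differences planted in genes that averaged at least 5 FPKM and a chosen noise. That run checks the code alone, and covers neither genes near 0 nor the unknown spread between samples. Python 3.11.15, pandas 2.3.3, numpy 2.4.6 and matplotlib 3.10.9 were used.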

Additional observations from a re-analysis of the deposited data

How the results depend on the processing

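No named gene or list median of at least 1 in size changed sign under the alternatives run. That could hardly have come out otherwise, so nothing is read from it. A changed pseudocount cannot flip the sign of a gene's ratio, and equal totals moved the median of all genes only from 0.03 to -0.15. List medians near 0 did change sign at equal totals, proliferation genes among them. Counts moved as follows, against 404 genes higher and 120 lower. With a pseudocount of 0.1 FPKM 546 were higher and 207 lower, and the ratios of 41 genes named by rule moved by more than a factor of 1.5. With a pseudocount of 0.5 FPKM 17 did. The size of the ratio of a gene near 0 in 1 group thus depends on the pseudocount. Among genes that averaged 5 FPKM or above across the 6 groups 154 were higher and 66 lower, and the members counted fell to 3 B cell genes, 4 T and NK cell genes and 7 simple epithelium genes, since most lymphocyte genes have a mean under 5 FPKM over groups in which they are near 0. At equal totals (TPM) 185 genes and 12 keratin-associated proteins were lower. With log2 ratios of 2 or more in size the counts were 95 and 12. Without immunoglobulin and T cell receptor genes, an alternative added after seeing the data, 387 were higher and 120 lower. No paired analysis was possible because the table holds 1 value per group; leaving out replicates was not possible for the same reason. With no depth and no replicates, low values cannot be told from noise, and a difference may rest on 1 sample.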

Other observations

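Of the 404 genes higher at 300 days, 284 were in no list or family, 206 of them with at least 5 FPKM at 300 days. Some of them are named here, chosen after their values were seen. Ptprc, which encodes the pan-leukocyte marker CD45, was 11.2 FPKM at 100 days and 89.2 at 300 days, the actin regulator Coro1a 10.8 and 58 FPKM, and Cd52 11 and 67.7 FPKM. Ikzf3, a transcription factor of lymphocytes, was 0.561 and 13.6 FPKM, the survival receptor Il7r 0.569 and 8.19 FPKM, and the inhibitory receptor Btla 0.591 and 10.5 FPKM. Lymphocyte genes in rows with several symbols, which entered no count, stood the same way: the row of the T cell kinase Lck was 1.11 and 35 FPKM, and that of Iglc2 was listed at 0 and at 25.1 FPKM. The row that holds Prlr, the prolactin receptor of mammary epithelium, was 83.4 and 22.4 FPKM. Of 76 lower genes in no list, Tmprss2, a protease of gland epithelium, was 13.9 and 3.85 FPKM, and the iodide transporter Slc5a5 9.74 and 2.68 FPKM.

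Among small non-coding RNAs, 6 of 20 in the table were higher and none lower: Rnu11 and Rnu12, RNAs of the minor spliceosome, were 76.8 and 483 FPKM and 256 and 1099 FPKM, and the Y RNA Rny1 was 563 and 1941 FPKM. Rn7sk was 60955 and 62832 FPKM. Such short RNAs depend on size selection, and the labels do not give that per group. Of 31 Hox genes, which keep body position in skin cells, Hoxa7 and Hoxb3 were higher, at 1.7 and 5.41 FPKM and 1.24 and 4.17 FPKM, while 23 had a ratio above 0 and 4 below. Snhg7, a host gene of small nucleolar RNAs, was listed at 0 at 100 days and at 62.6 FPKM at 300 days. Of 59 ribosomal protein genes none was counted; their median log2 ratio was 0.17, and -0.02 at equal totals.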
